A study of Homo sapiens with 12 samples.

Results

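HLA class I antigen presentation genes were examined in 3 established prostate cell lines. The set held the heavy chain genes HLA-B, HLA-C, HLA-E and HLA-F, the light chain gene B2M, the peptide transporter genes TAP1 and TAP2, the chaperone gene TAPBP and the regulator gene NLRC5, found by symbol as 9 of the 58302 genes of the deposited expression table. RNA sequencing had been performed on 4 libraries each of BPH-1, a benign prostate epithelial line, and of DU145 and PC3, both prostate cancer (PCa) lines. The paper compared BPH-1 with PC3 to screen for differentially expressed genes of the voltage-gated chloride channel family, and did not name DU145 in that screen. All lines carried the genotype label WT, with no treatment named, and were grown in DMEM with fetal bovine serum, penicillin and streptomycin. Each line was a model of 1 origin, so a difference between lines cannot be told apart from a difference between benign and malignant cells. The labels do not say that replicates were separate cultures, so p-values measure the spread between these libraries, which may be technical.

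Class I molecules carry short peptides from inside the cell to its surface, where cytotoxic T cells read them. A heavy chain pairs with beta-2 microglobulin, the product of B2M, in the endoplasmic reticulum, and the TAP1 and TAP2 transporter brings in the peptides while tapasin, the product of TAPBP, holds the empty molecule next to it. NLRC5 is a transactivator of class I genes, acting through the promoter module bound by RFX, CREB and NF-Y factors, and interferon gamma raises most genes of the pathway.

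The promoters of HLA-B, HLA-C and B2M are shown. Of the 7 members with a promoter sequence at hand, the other 4 were left out because an annotated exon of the gene lies in the stretch. The stretches run from 200 to 41 bases before the RefSeq start site on GRCh38.p14, 5′ to 3′ on the gene's own strand, at chr6:31357220-31357379 (minus strand) for HLA-B, chr6:31272133-31272292 (minus strand) for HLA-C and chr15:44711317-44711476 (plus strand) for B2M. No annotated exon of the gene itself lies in them, while the stretch of HLA-B lies across an exon of the pseudogene AL671883.2 on the other strand. Capitals mark matches on either strand to the CCAAT box (CCAAT), the CRE core (TGACG), an interferon-stimulated response element (GAAANNGAAA) or the kappaB motif.
HLA-B: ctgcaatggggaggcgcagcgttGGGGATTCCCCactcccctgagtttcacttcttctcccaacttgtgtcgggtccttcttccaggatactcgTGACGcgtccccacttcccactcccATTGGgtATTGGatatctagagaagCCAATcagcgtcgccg
HLA-C: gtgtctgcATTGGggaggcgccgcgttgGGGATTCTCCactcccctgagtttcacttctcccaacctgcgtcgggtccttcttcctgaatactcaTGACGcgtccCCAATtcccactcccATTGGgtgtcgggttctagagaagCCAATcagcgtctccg
B2M: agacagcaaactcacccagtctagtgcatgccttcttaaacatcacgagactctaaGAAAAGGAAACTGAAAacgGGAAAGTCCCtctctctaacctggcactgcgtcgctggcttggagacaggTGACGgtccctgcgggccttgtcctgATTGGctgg

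The set of RefSeq promoter sequences used here had an entry for 7 of the 9 members, all but HLA-E and NLRC5. In the 250 bases before the start, the interferon-stimulated response element matched in 5 of these 7 members (HLA-F, B2M, TAP1, TAP2 and TAPBP), against 3.02% of the 35116 promoters in that set. Only exact matches to GAAANNGAAA were counted, so a variant of the element, in HLA-B or HLA-C for instance, would be missed. The kappaB motif matched in 5 of 7 (HLA-B, HLA-C, B2M, TAP1 and TAPBP), against 5.21% of promoters. The CCAAT box matched in 5 of 7 (32.0% of promoters) and the CRE core in 4 of 7 (21.2% of promoters). HLA-B and HLA-C held a kappaB match, then the CRE core, then CCAAT boxes, with 1 more CCAAT box ahead of these in HLA-C, and B2M held all 4 motifs. The GAAANNGAAA matches of B2M overlap each other, as do the kappaB matches of HLA-B.

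Expression was taken as FPKM, the reads of a gene divided by its length and by the reads of the library. Depth recovered from the values lay between 12950663 and 16309561 reads per library. Among epithelial markers, KRT18 lay between 26.8 and 99.2 FPKM over the 12 libraries. KRT8 lay between 14.7 and 41.7 FPKM. EPCAM lay between 57.7 and 63.2 FPKM in BPH-1 and between 6.92 and 11.1 in PC3 but did not pass 0.573 in DU145. CDH1, the E-cadherin gene, lay between 16.3 and 44.6 FPKM in BPH-1, between 0.427 and 1.42 in PC3 and between 0.0851 and 0.297 in DU145. KLK3, the prostate-specific antigen gene, was at 0 in every library. The libraries also differed in how FPKM followed gene GC content. The slope of log2 FPKM per 10 points of GC ran from -0.43 to -0.32 in BPH-1. It was 0.71 and 1.02 in DU145 replicates 1 and 3 against -0.10 and 0.05 in replicates 2 and 4, and in PC3 it rose to 0.74 in replicate 4 from at most 0.41 in the others.

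Libraries also stood apart in leukocyte marker RNA. The summed FPKM of 7 leukocyte markers (PTPRC, CD3E, CD79A, CD14, LYZ, HLA-DRA and CD74) was 14.3 to 18.2 in BPH-1. It was 13.7 and 13.8 in DU145 replicates 1 and 2 against 1.08 and 0.646 in replicates 3 and 4, and 0.175 to 0.659 in PC3. LYZ, the lysozyme gene, made up most of it, at 7.61 to 10.1 FPKM in BPH-1 and at 7.76 and 8.63 in DU145 replicates 1 and 2, while LYZ and PTPRC were at 0 in DU145 replicates 3 and 4. The T cell gene CD3E was at 0 throughout, and of the 7 markers 6 were above 0 in some library of BPH-1, 6 in DU145 and 4 in PC3. Replicates 3 and 4 of DU145 held RNA of 2 stromal markers instead. DCN had 102 and 51 reads and COL1A2 had 34 and 30 there, and both had 0 in replicates 1 and 2. The sum of 4 stromal markers (COL1A1, COL1A2, DCN and PDGFRB) was 1.66 and 1.12 FPKM in replicates 3 and 4, 0.963 and 0.627 in replicates 1 and 2, 1.97 to 3.43 in BPH-1 and 3.01 to 3.88 in PC3. Because leukocytes carry much class I RNA, the members' comparisons with DU145 are given below with and without replicates 1 and 2. In such bulk RNA, fewer cells of a type and less RNA per cell cannot be told apart.

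Of the 9 members, 7 were lower in PC3 than in both other lines, and limma called none between DU145 and BPH-1 in the fit of all their libraries to FPKM as deposited, while some other settings called 1 to 5. HLA-B, the gene of a classical heavy chain, showed the largest difference of the 9 on the log2(FPKM + 1) scale. In BPH-1 its FPKM was 18.7, 29.9, 18.4 and 17.6 in replicates 1 to 4, and in DU145 it was 34.6, 23.5, 26.5 and 21.4. In PC3 it was 3.11, 3.11, 4.10 and 5.67, so every PC3 library lay below every other library, while BPH-1 and DU145 overlapped. The mean of 4.00 ± 1.21 (SD, n = 4) in PC3 was 5.29-fold below the 21.2 ± 5.84 of BPH-1 (log2 fold change -2.14, standard error 0.21, limma adjusted p = 1.86e-05). It was 6.62-fold below the 26.5 ± 5.77 of DU145 (log2 fold change -2.47, standard error 0.21, limma adjusted p = 1.67e-05). The DU145 replicates without LYZ and PTPRC, 3 and 4, were among the libraries with high HLA-B, and against these 2 alone the log2 fold change of PC3 was -2.34 (limma adjusted p = 0.000689). These 2 libraries are those that held DCN and COL1A2 RNA, whose part was not tested.

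Against DU145 replicates 3 and 4 alone, 6 of 9 members were still lower in PC3, where 3987 of 17146 genes tested were lower. Beside HLA-B these were HLA-F (log2 fold change -1.27, limma adjusted p = 0.000785), TAP1 (-1.18, 0.0101), TAP2 (-0.77, 0.0106), TAPBP (-0.90, 0.0402) and NLRC5 (-0.62, 0.000356). HLA-C (-0.80, limma adjusted p = 0.109), HLA-E (-0.19, 0.623) and B2M (0.52, 0.480) were not called. In DU145 replicates 3 and 4 against BPH-1, limma called 0 members, where 9813 of 17874 genes tested were called. B2M was at -1.09 (limma adjusted p = 0.0916) where all 4 libraries gave -0.34. The other 8 lay between -0.30 and 0.29, and 0 members had an unadjusted p under 0.05. In PC3 against BPH-1, where all BPH-1 libraries held leukocyte marker RNA, the part of these markers in the members' differences was not tested. HLA-B shares 18.9% of its exonic bases, with the pseudogene AL671883.2 on the other strand and, for 35 bases, with HLA-C.

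**Figure D1:**
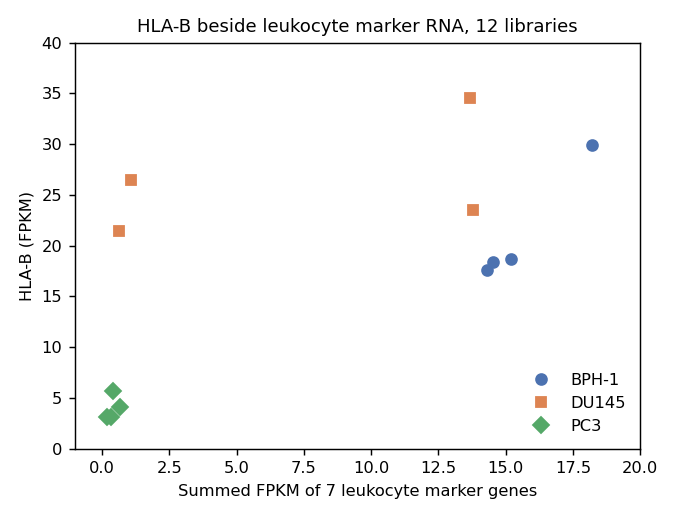
HLA-B (FPKM, y axis) is plotted against the summed FPKM of 7 leukocyte markers (x axis) for the 12 libraries, coloured by line. DU145 replicates 3 and 4 lie at 1.08 and 0.646 on the x axis with HLA-B at 26.5 and 21.4, while PC3 libraries at up to 0.659 have HLA-B at 3.11 to 5.67.

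HLA-C, the other classical heavy chain gene of the set, differed less. Its FPKM was 15.03, 27.5, 37.7 and 17.6 in BPH-1, 23.6, 16.0, 24.8 and 13.9 in DU145, and 10.2, 7.67, 8.80 and 15.8 in PC3. PC3 replicate 4 overlapped the lowest library of each other line. HLA-C was lower in PC3 than in BPH-1 (24.5 ± 10.4 against 10.6 ± 3.61 in PC3, SD, n = 4 each, log2 fold change -1.09, standard error 0.30, limma adjusted p = 0.00900). Against DU145 (19.6 ± 5.44) the call was weak (log2 fold change -0.83, standard error 0.26, limma adjusted p = 0.0235). It was lost without DU145 replicate 1 (adjusted p = 0.0673) or 3 (0.0533) and without PC3 replicate 1 (0.0522), 2 (0.0686) or 3 (0.0650), and with the replicate number as a block the limma adjusted p was 0.0547. Over all alternatives it ran from 0.00216 to 0.159.

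HLA-F, the gene of a non-classical heavy chain, was the lowest of the heavy chains. Its FPKM was 2.96, 6.15, 1.30 and 3.50 in BPH-1, 2.43, 1.12, 2.62 and 2.12 in DU145, and 0.259, 0.321, 0.559 and 0.438 in PC3. All PC3 libraries lay below all others. The difference of PC3 was 8.81-fold against BPH-1 (log2 fold change -1.57, standard error 0.29, limma adjusted p = 0.000925) and 5.25-fold against DU145 (-1.11, standard error 0.18, limma adjusted p = 0.000739), as ratios of mean FPKM. The fitted changes understate these ratios because 1 is added to low values. HLA-F shares 28.5% of its exonic bases with 3 genes on the other strand, and whether strand was used in counting is not given in the sources used here.

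HLA-E, whose product is read by the NKG2A receptor of natural killer cells, differed less between lines than HLA-B. Its FPKM was 53.3, 78.5, 55.7 and 68.1 in BPH-1, 57.7, 40.7, 67.1 and 45.7 in DU145, and 36.1, 43.4, 55.4 and 63.1 in PC3, with all lines overlapping. It had the highest FPKM of the 9 members in every library. The deposited FPKM divides by the summed length of distinct exons, which counts overlapping exons repeatedly and so lowers HLA-C and HLA-B more than HLA-E. Per merged exon length HLA-E was highest in 11 of 12 libraries, and in BPH-1 replicate 3 HLA-C passed it (93.8 against 74.1). The log2 fold change of PC3 was -0.38 against BPH-1 (95% confidence interval -0.81 to 0.05, limma adjusted p = 0.108) and -0.10 against DU145 (-0.59 to 0.40, limma adjusted p = 0.744). Without PC3 replicate 4, HLA-E was lower in PC3 than in BPH-1 (log2 fold change -0.50, limma adjusted p = 0.0359). It was also lower with the GC trend of each library divided out (-0.81, limma adjusted p = 0.000806, where 36.8% of genes tested were called lower) and with every library scaled to the same FPKM sum (-0.65, limma adjusted p = 0.0130).

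The make-up of the heavy chain RNA was set out by library. HLA-B made up 5.71% to 6.67% of the summed FPKM of the 4 heavy chain genes in PC3 libraries, against 16.3% to 21.0% in BPH-1 and 21.9% to 29.2% in DU145. HLA-E made up 72.7% to 80.4% in PC3, against 49.2% to 63.8% in BPH-1 and 48.8% to 55.4% in DU145. The share of HLA-C overlapped between lines (16.5% to 33.3% in BPH-1, 16.7% to 20.5% in DU145, 12.8% to 20.5% in PC3). Per merged exon length HLA-B made up 7.48% to 8.42% in PC3, 17.9% to 24.8% in BPH-1 and 25.5% to 33.1% in DU145, and HLA-E 59.9% to 70.2%, 35.7% to 51.3% and 36.6% to 42.6%. The summed FPKM as deposited was 64.5 ± 15.9 in PC3, 101.0 ± 21.7 in DU145 and 113.0 ± 21.7 in BPH-1 (SD, n = 4 each). HLA genes resemble one another and differ between people, so how reads of each line's alleles were divided among them was not tested.

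**Figure D2:**
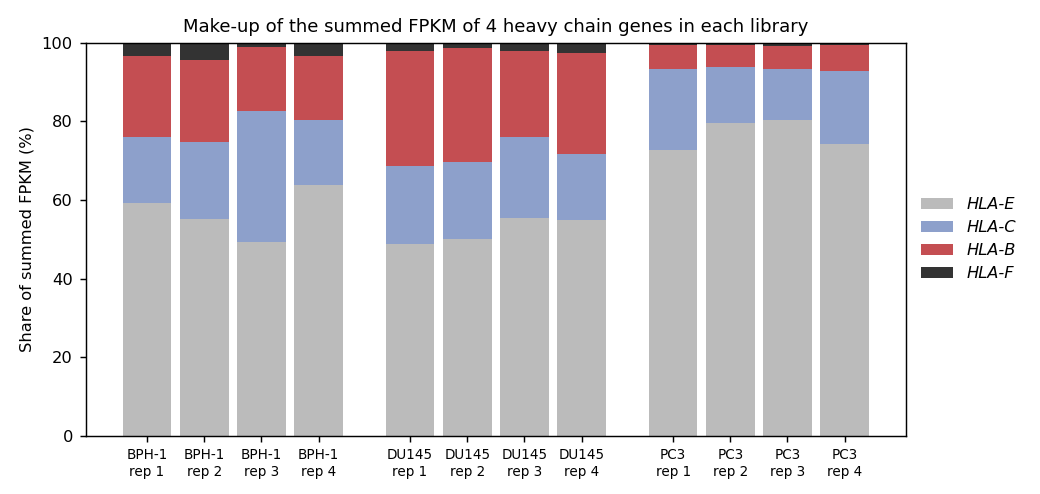
Bars give, for each library, the percent of the summed FPKM of HLA-B, HLA-C, HLA-E and HLA-F that each gene made up. The HLA-B segment is at most 6.67% in PC3 libraries and at least 16.3% in all others.

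B2M varied widely within each line. Its FPKM was 5.33, 8.66, 14.9 and 16.1 in BPH-1, 13.3, 15.1, 7.11 and 2.501 in DU145, and 8.34, 8.86, 8.95 and 2.69 in PC3. The lines overlapped over most of their range, and the coefficient of variation within a line was 45.5% in BPH-1, 60.8% in DU145 and 42.0% in PC3, against 5.98% to 9.21% for TAP2. The log2 fold change was -0.57 for PC3 against BPH-1 (95% confidence interval -1.47 to 0.32, limma adjusted p = 0.227) and -0.24 for PC3 against DU145 (-1.40 to 0.92, limma adjusted p = 0.732), so differences of over 2-fold lie within the interval. B2M had the lowest GC content of the members, 40.6% against 50.7% to 61.3% for the others. The ratio of B2M to the summed heavy chains ranged from 0.0593 to 0.151 in BPH-1, from 0.0301 to 0.185 in DU145 and from 0.0316 to 0.168 in PC3, and no pair of lines passed the test (exact permutation p = 0.629 to 0.8, two-sided, 4 against 4).

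The peptide transporter genes were lower in PC3. TAP1 had an FPKM of 17.5, 21.8, 15.1 and 17.7 in BPH-1, 27.1, 18.3, 27.5 and 17.6 in DU145, and 9.11, 8.28, 7.83 and 11.8 in PC3. TAP2 had 23.5, 23.6, 22.0 and 20.8 in BPH-1, 23.1, 22.4, 24.2 and 20.7 in DU145, and 13.9, 12.3, 11.3 and 13.5 in PC3. For both genes all PC3 libraries lay below all others. TAP1 was 1.95-fold lower in PC3 than in BPH-1 (log2 fold change -0.90, standard error 0.15, limma adjusted p = 0.000589) and 2.44-fold lower than in DU145 (-1.19, standard error 0.20, limma adjusted p = 0.000974). TAP2 was 1.76-fold lower than in BPH-1 (-0.77, standard error 0.10, limma adjusted p = 0.000120) and 1.77-fold lower than in DU145 (-0.78, standard error 0.12, limma adjusted p = 0.000656). TAP2 shares 32.3% of its exonic bases with the overlapping protein-coding gene AL669918.1, so its reads may not be all its own, and TAP1 shares 9.49% with PSMB8-AS1 on the other strand.

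TAPBP, the tapasin gene, had an FPKM of 30.3, 40.5, 24.1 and 17.5 in BPH-1, 40.5, 22.1, 41.1 and 20.9 in DU145, and 16.8, 13.3, 15.4 and 15.5 in PC3. The highest PC3 library lay just below the lowest of BPH-1. TAPBP was 1.84-fold lower than in BPH-1 (log2 fold change -0.78, standard error 0.22, limma adjusted p = 0.0103) and 2.04-fold lower than in DU145 (-0.92, standard error 0.24, limma adjusted p = 0.0112). In DU145, TAP1 and TAPBP were higher in replicates 1 and 3, the libraries with GC slopes of 0.71 and 1.02, than in replicates 2 and 4. So were all other members but B2M. Against replicates 2 and 4 alone, 6 of 9 members were still lower in PC3, where 5526 of 17266 genes tested were lower. Among them were TAP1 (log2 fold change -0.90, limma adjusted p = 0.00501) and TAPBP (-0.47, limma adjusted p = 0.0184). HLA-C, HLA-E and B2M were not called there.

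NLRC5 was close to the limit of detection in PC3. Its FPKM was 0.709, 1.16, 0.666 and 0.885 in BPH-1 and 0.785, 0.611, 0.657 and 0.487 in DU145. In PC3 it was 0.00970, 0.0305, 0.00905 and 0.0259, which stood for 3, 10, 3 and 8 reads, while the other libraries held 156 to 424 reads. Over the summed reads of 4 libraries each, 24 in PC3 against 1262 in BPH-1, the level per read of depth was 45.5-fold lower (95% interval 30.4 to 71.3, exact, counting error only). Against the 940 reads of DU145 it was 34.1-fold lower (22.8 to 53.6). The test on the log2(FPKM + 1) scale gave -0.86 (standard error 0.08, limma adjusted p = 1.40e-05) and -0.68 (standard error 0.06, limma adjusted p = 2.56e-05). With so few reads in PC3, NLRC5 passed the read filter only through the other line. A higher call in PC3 could not arise, so these p-values say little beyond the reads. NLRC5 thus had the largest ratio of the 9 members, while on that scale its difference was smaller than those of HLA-B, HLA-C, HLA-F and TAP1.

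**Figure D3:**
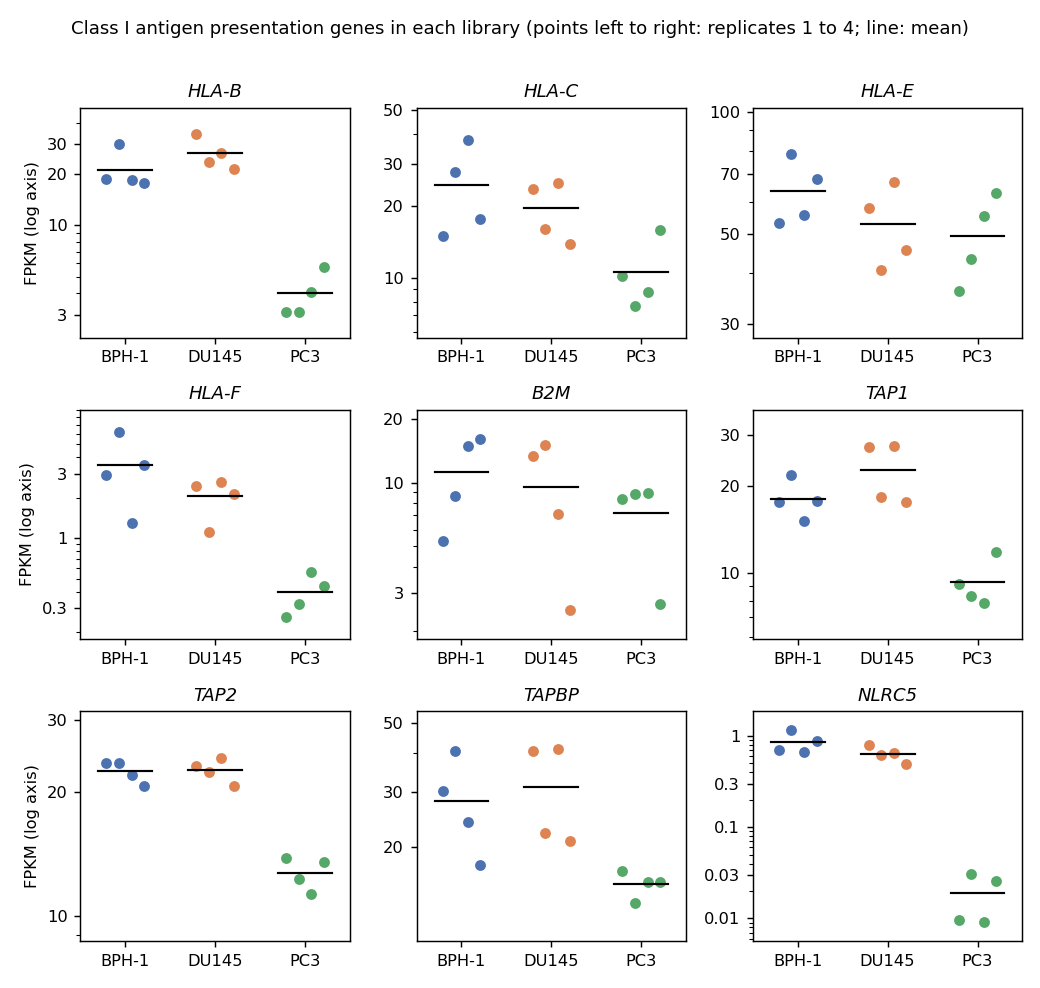
Each panel shows the FPKM (log axis) of a member in the 4 libraries of BPH-1, DU145 and PC3, with a line at the mean. All PC3 points lie below all others for HLA-B, HLA-F, TAP1, TAP2, TAPBP and NLRC5, and the lines overlap for HLA-C, HLA-E and B2M.

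Counted over the set, 7 of 9 members were called in PC3 against BPH-1, all lower, where 67.6% of 16408 genes tested were called, and 40.4% were called lower. In PC3 against DU145, 7 of 9 were called, all lower, where 48.3% of 16420 genes were called, and 28.3% were called lower. Every PC3 library lay below every library of the other line for 6 of 9 members in each comparison (38.6% of genes tested against BPH-1 and 27.5% against DU145). The median log2 fold change of the members was -0.86 against BPH-1, beside -0.13 over all genes tested, and -0.83 against DU145, beside -0.05. Both comparisons use the same PC3 libraries, so they are not independent. In both, NLRC5 (3 to 10 reads per PC3 library) passed the read filter only through the other line, so it could not be called higher in PC3. In DU145 against BPH-1, limma called 0 of 9 members, where 62.7% of 17016 genes were called, and 32.4% of the genes tested were called lower, and 0 members had an unadjusted p under 0.05. On recovered reads voom also called 0. The member median there was -0.18, beside -0.03 over all genes.

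**Figure D4:**
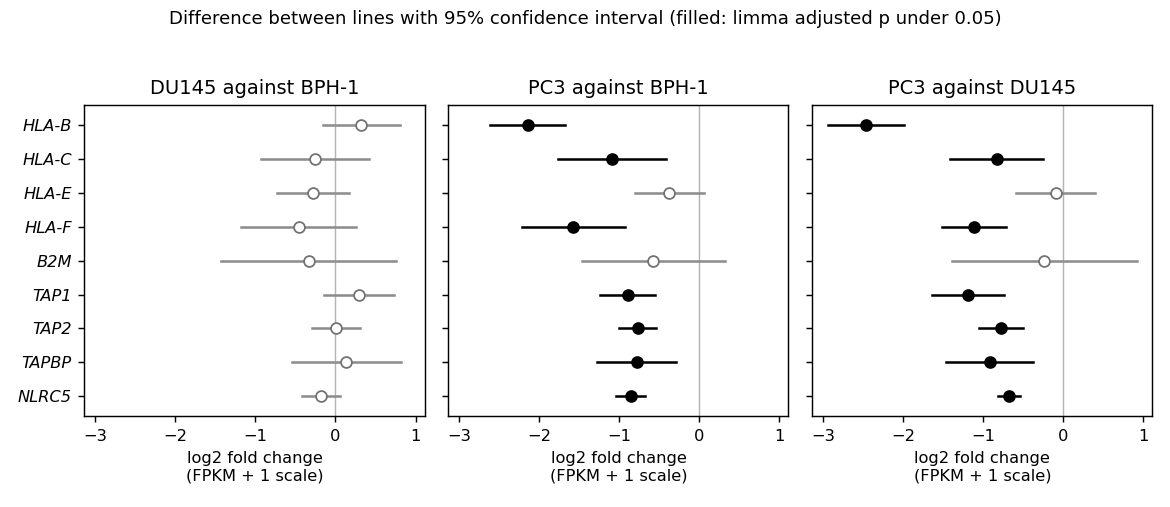
Points give the log2 fold change on the FPKM + 1 scale and bars its 95% confidence interval for the 9 members in the 3 comparisons, filled where the limma adjusted p is under 0.05. No interval excludes 0 in DU145 against BPH-1. In each comparison of PC3 all 9 points lie below 0, and for 7 members, all but HLA-E and B2M, the interval excludes 0.

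Calls in DU145 against BPH-1 changed with GC correction. With each library's GC trend divided out, 5 of 9 members were lower in DU145, where 32.4% of genes tested were lower under that correction, namely HLA-E (log2 fold change -0.77, limma adjusted p = 0.000399), HLA-C (-0.75, adjusted p = 0.0360), HLA-F (-0.80, adjusted p = 0.0413), NLRC5 (-0.38, adjusted p = 0.00555) and TAP2 (-0.28, adjusted p = 0.0326). The same correction left HLA-B at -0.17 (adjusted p = 0.453) and TAP1 at -0.12 (adjusted p = 0.397). It also removes any real difference that follows GC content.

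Of the 9 members, 7 (all but B2M and NLRC5) lie between 29722775 and 33314387 on chromosome 6 (GRCh38), within the major histocompatibility complex. The deposited coordinates put HLA-F at 29722775 to 29738528, HLA-E at 30489467 to 30494205, HLA-C at 31268749 to 31272130, TAP2 at 32821833 to 32838780, TAP1 at 32845209 to 32853978 and TAPBP at 33299694 to 33314387. HLA-B is given a long span, 31269491 to 31357188, that overlaps HLA-C. B2M lies on chromosome 15 (44711477 to 44718877) and NLRC5 on chromosome 16 (56989485 to 57083531). Of the 106 other protein-coding genes tested there in PC3 against BPH-1, 22 were lower (20.8%) and 39 were higher, with a median log2 fold change of 0.17. In PC3 against DU145, 36 of 102 were lower (35.3%) and 12 were higher, with a median of -0.22. In DU145 against BPH-1, 21 of 107 were lower and 52 higher. Of the 7 members in the stretch, 6 were lower in PC3 in each of its comparisons.

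Proteasome subunits that make class I peptides were compared next. Of 5 genes for the immunoproteasome and the proteasome activator, 5 were lower in PC3 than in BPH-1, where 40.4% of all genes tested were lower. PSMB9, an interferon-inducible catalytic subunit encoded at the TAP1 locus, was lower in PC3 (0.635 ± 0.125 FPKM, SD, n = 4) than in BPH-1 (8.82 ± 3.09, log2 fold change -2.53, limma adjusted p = 9.96e-06) and DU145 (4.14 ± 1.04, -1.63, limma adjusted p = 5.92e-05). PSMB8 was lower in PC3 than in BPH-1 (8.52 ± 0.407 against 19.5 ± 4.04, log2 fold change -1.09, limma adjusted p = 0.000133). Against DU145, 3 of the 5 were lower in PC3 and 2 were higher. Of the 16420 genes tested there, 28.3% were lower and 3281 were higher. The 2 higher were the activator subunits PSME1 (log2 fold change 1.23, limma adjusted p = 0.000173) and PSME2 (0.50, limma adjusted p = 0.0470). In DU145 against BPH-1, 3 of 5 were lower, where 32.4% of all genes tested were lower. PSME1 (-1.62) and PSME2 (-1.28) changed most.

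Within each library, an immunosubunit was set against the constitutive subunit whose place it takes. PSMB9 to PSMB6 was 0.204 to 0.656 in BPH-1, 0.0504 to 0.0806 in DU145 and 0.0212 to 0.0342 in PC3, with no overlap between lines. PSMB8 to PSMB5 was 0.411 to 0.928 in BPH-1, 0.905 to 1.27 in DU145 and 0.185 to 0.263 in PC3. PSMB10 to PSMB7 was 0.0249 to 0.0819 in BPH-1, 0.0151 to 0.0280 in DU145 and 0.0177 to 0.0247 in PC3. For this ratio PC3 and DU145 overlapped, with a mean log2 difference of 0.001, and so did DU145 and BPH-1. Of 12 ratio tests, the ratio to B2M included, 6 reached 0.0286, the smallest p that the two-sided exact permutation test of 4 against 4 can give, and after Benjamini-Hochberg adjustment the smallest p of the 12 was 0.0571. The denominators also differed between lines. PSMB6 was higher in DU145 (64.7 ± 15.9 FPKM) than in BPH-1 (22.1 ± 3.41, log2 fold change 1.49, limma adjusted p = 0.000131) and PSMB5 was lower in DU145 than in PC3 (16.6 ± 6.08 against 38.6 ± 6.90, log2 fold change of PC3 1.22, limma adjusted p = 0.00324). Of the 3 constitutive subunits, 3 were called in each comparison with DU145, and limma called 0 in PC3 against BPH-1. Of all genes tested, 62.7% were called in DU145 against BPH-1, 48.3% in PC3 against DU145 and 67.6% in PC3 against BPH-1.

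**Figure D5:**
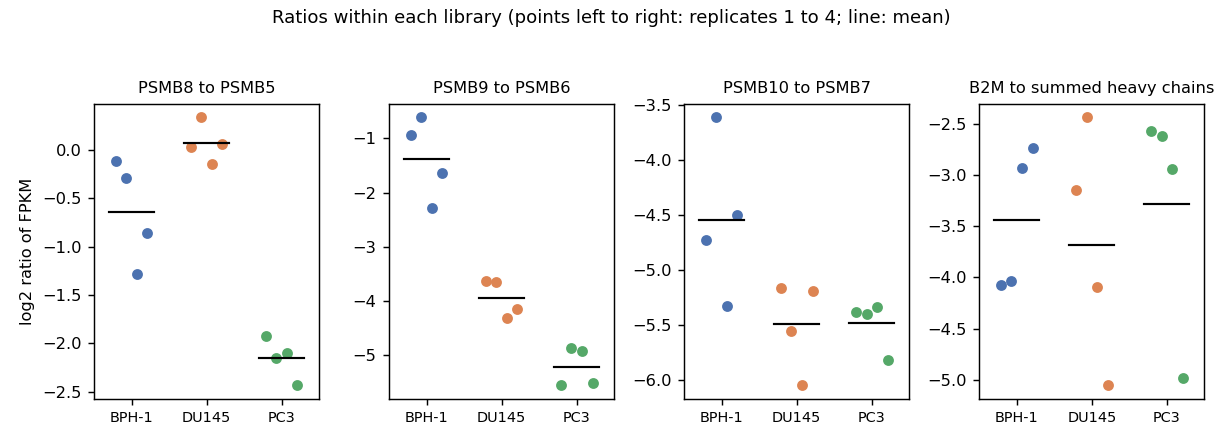
Points give, per library, the log2 ratio of FPKM of each immunosubunit to its constitutive counterpart and of B2M to the 4 heavy chains, with a line at the mean of the 4 libraries of a line. The lines are separate for PSMB9 to PSMB6 and overlap for B2M to the heavy chains. For PSMB10 to PSMB7, DU145 overlaps both PC3 and BPH-1.

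Of 12 class I transcription factors, 7 were lower and 1 higher in PC3 than in BPH-1, with a median log2 fold change of -0.58, where 40.4% of all genes tested were lower. IRF1, an interferon-induced activator, was lower in PC3 (1.28 ± 0.301 FPKM) than in BPH-1 (5.27 ± 0.446, log2 fold change -1.46, limma adjusted p = 9.12e-06) and DU145 (5.21 ± 1.37, -1.43, limma adjusted p = 0.000292), with no call between DU145 and BPH-1 (limma adjusted p = 0.876). RFX5, a subunit of the RFX complex on class I and class II promoters, was higher in DU145 (26.2 ± 3.18 FPKM) than in BPH-1 (5.39 ± 0.404, log2 fold change 2.08, limma adjusted p = 2.505e-06) and PC3 (4.38 ± 0.330). In PC3 against DU145, 4 of 12 factors were lower and 0 higher by limma, where 28.3% of all genes tested were lower. Of 4 genes of the interferon gamma receptor and its kinases, 3 were lower and 1 higher in PC3 than in BPH-1 (40.4% of all genes tested were lower). IFNGR1 was lower in PC3 than in BPH-1 (log2 fold change -1.98, limma adjusted p = 5.43e-05) while IFNGR2 was higher (1.30, limma adjusted p = 0.000235). In DU145 against BPH-1, IFNGR1 (-2.16, limma adjusted p = 0.000286) and JAK2 (-1.50, limma adjusted p = 8.76e-05) were lower and IFNGR2 was higher (0.72, limma adjusted p = 0.00404). Within DU145, IFNGR1 and JAK2 were lower in replicates 1 and 3, which had the steeper GC slopes, than in 2 and 4, and IFNGR2 was higher there. The part of the GC slopes was not tested. IFNGR1 was not called between PC3 and DU145 (0.18, limma adjusted p = 0.736).

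Of 7 genes for peptide trimming and loading, 4 were lower in PC3 than in BPH-1, where 40.4% of all genes tested were lower, and 6 were lower in DU145 than in BPH-1, where 32.4% were. The tapasin-like gene TAPBPL was lower in PC3 than in BPH-1 (0.0578 ± 0.00829 against 1.34 ± 0.346 FPKM, log2 fold change -1.13, limma adjusted p = 1.04e-05). The aminopeptidase gene ERAP2 (-2.33, limma adjusted p = 0.000109) and the lectin chaperone gene CANX (-1.79, limma adjusted p = 0.00124) were also lower in PC3 than in BPH-1. In PC3 against DU145, where 28.3% of all genes tested were lower, 1 of 7 was lower and 1 was higher. The lower was TAPBPL (0.0578 against 0.815 FPKM, 14.1-fold as a ratio of means, limma adjusted p = 7.68e-06). TAPBPL had 4 or 5 reads in each PC3 library and passed the read filter only through the other line. For it a higher call in PC3 could not arise in either comparison. The higher was CALR (log2 fold change 1.10, limma adjusted p = 0.00736). Within DU145, ERAP2, CANX and UGGT1 were lower in replicates 1 and 3, which had the steeper GC slopes, than in 2 and 4. UGGT1 was at 2.85 and 0.744 FPKM against 15.4 and 16.3. CALR and TAPBPL were higher in replicates 1 and 3. Every DU145 library lay below every BPH-1 library for ERAP2, CANX and UGGT1. The part of the GC slopes was not tested.

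Among 5 class I-like partners of B2M, HFE, a regulator of iron uptake, had 0 reads in all 4 PC3 libraries, a level below the 0.00495 FPKM that 3 reads over the line would give. Its FPKM was 0.864 ± 0.307 in BPH-1 and 1.11 ± 0.196 in DU145. Of the 4 of these genes tested in PC3 against BPH-1, 3 were lower and 1 higher, where 40.4% of all genes tested were lower. Among the lower, HFE and CD1D had 0 reads in PC3 and passed the read filter only through BPH-1, so neither could be called higher. Of 8 ligands of the NKG2D receptor, 5 were lower in PC3 than in BPH-1 (40.4% of all genes tested) and 0 higher by limma. RAET1E, among these 5, had 2 to 9 reads per PC3 library and likewise passed the filter only through BPH-1. In DU145 against BPH-1, 5 were lower (32.4% of all genes tested), with RAET1L (-1.83), ULBP2 (-1.29) and ULBP3 (-1.15) the largest, and 1 was higher, ULBP1 (fitted difference from BPH-1 of 2.19 on the log2 scale, limma adjusted p = 4.53e-05). Of 10 class II genes, 9 were tested in PC3 against BPH-1 and 9 were lower (40.4% of all genes tested). Against DU145, 6 were tested and 6 were lower (28.3% of all genes tested). Most of these genes had few or 0 reads in PC3 and passed the read filter only through the other line. For them a higher call in PC3 could not arise, so these counts say little. HLA-DRB1 had 0 reads in all PC3 libraries and 1.16 to 3.31 FPKM in BPH-1, where leukocyte markers were also present, whose part in the class II difference was not tested. In DU145 replicates 3 and 4, where LYZ was at 0, class II genes went different ways. HLA-DRB1 was at 2.37 and 1.46 FPKM there, against 2.76 and 2.49 in replicates 1 and 2, while HLA-DRA was at 0.276 and 0.182 against 3.04 and 3.02. HLA-DPA1 was at 0.179 and 0.135 against 0.538 and 0.417, and HLA-DPB1 at 0 and 0.0161 against 0.454 and 0.278. Of 4 class I pseudogenes, 2 were tested, and both were lower in PC3 than in BPH-1 (40.4% of all genes tested) and DU145 (28.3%). HLA-H was at 3.12 ± 0.793 FPKM in PC3, against 5.88 ± 1.03 in BPH-1 and 6.82 ± 1.48 in DU145 (limma adjusted p = 0.00336 and 0.00425).

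For likeness, the root mean square difference of centred log2(FPKM + 1) over the 12 libraries was taken against 12491 protein-coding genes. The nearest to HLA-B was ARHGEF40 (0.241 on the log2 scale), then FZD7 (0.268) and HEXA (0.282). The nearest to TAP1 was LLGL1 (0.139), then TNFAIP1 (0.143) and USP11 (0.147). The nearest to NLRC5 was PHF2 (0.0908), then BBC3 (0.0932) and NDRG2 (0.0944). B2M had no gene as near, with ZBTB3 at 0.462, NSRP1 at 0.534 and LIPT1 at 0.553. A member with small changes on this scale has near neighbours more easily than one with large changes.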

How the data were processed

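RNA sequencing of 12 libraries was analysed. The submitters' processing notes name CASAVA 1.8, HISAT2 2.1.0, edgeR and GRCh38, and the counting program is not given in the sources used here. The deposited values were FPKM (unit not named in the header), and 0 columns were left unassigned. Gene length as the sum of distinct exons (GENCODE 29) gave whole reads, within 0.05 read, for 93.2% to 94.3% of low values, and so depth. B2M and TAP1 did not come out whole at their annotated length, and their lengths were taken from the steps of their values, which sets their reads and not their FPKM.

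limma 3.58.1 (R 4.3.3, intensity trend) was fitted to log2(FPKM + 1) of the 2 lines compared, over genes with at least 10 reads (at median depth) in 4 libraries and 15 in all, with Benjamini-Hochberg adjustment over all genes and a threshold of 0.05. It was tested on simulated data. Ratios were tested by exact permutation with 0.1 added to proteasome values. Alternatives were log2(FPKM + 0.1), other filters, 1 fit over 3 lines, a replicate block, other scalings, voom with TMM factors, GC correction and leaving out libraries. Subsets of DU145 and merged exon length were added after seeing the data. Members and lists were chosen with earlier results of these data known. All members were described, and of each list at most the 3 largest changes per comparison of at least 1 on the log2 scale. HLA-H lies outside that rule and was named after its values were seen. Some items are not reported here.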

Additional observations from a re-analysis of the deposited data

Results flagged for a closer look

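Within each line, the 4 libraries were searched for a value far from the rest (by Dixon's 95% limit on the gap to the nearest library) in 39 groups of member values and ratios, and 4 were found, where chance gives about 5%. HLA-B in BPH-1 replicate 2 was 29.9 FPKM, where its line otherwise ran from 17.6 to 18.7. B2M in PC3 replicate 4 was 2.69 FPKM, against 8.34 to 8.95 in the others. The log2 ratio of B2M to the summed heavy chains was accordingly -4.98 in PC3 replicate 4, against -2.94 to -2.57. The log2 ratio of PSMB10 to PSMB7 was -5.82 in the same library, against -5.40 to -5.34. PC3 replicate 4 had the steepest GC slope of its line (0.74), whose part in these values was not tested.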

How the results depend on the processing

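The replicate numbers did not pair the libraries (correlations of same-numbered libraries -0.66 to 0.52), and with the number as a replicate block the members called were 0, 7 and 6 in DU145 against BPH-1, PC3 against BPH-1 and PC3 against DU145, and all genes called 10131, 10733 and 6747. In PC3 against BPH-1 the count of members called was 6 to 8 of 9 under every alternative, and in PC3 against DU145 it was 6 or 7. The counts of 6 included the filters of 10 reads in every library and of FPKM 1, which removed NLRC5 from the test and left 8 members. Over all the lists of pathway genes, 27 were called in PC3 against DU145 and 17 with the filter of 10 reads, under which fewer genes were tested (41 against 50). HLA-C in PC3 against DU145 was also not called with median-of-ratios scaling (limma adjusted p = 0.0657). In DU145 against BPH-1 it was 0 except for 2 with every library scaled to the same FPKM sum, 5 with the GC trend divided out, 1 against DU145 replicates 2 and 4 only, and 0 to 1 when each library was left out (1, HLA-F, without BPH-1 replicate 3). The same FPKM sum shifted the median of all genes from -0.03 to -0.17 in that comparison and from -0.13 to -0.29 in PC3 against BPH-1. With the GC trend divided out TAP2 turned from 0.01 to -0.28 in DU145 against BPH-1. The cause was not tested.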

Other observations

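B2M held few reads for a gene known for high expression: 428 to 3203 per library, of depths of at least 12950663. With the GC trend divided out, its log2 fold change was 0.81 in DU145 and 0.49 in PC3 against BPH-1 (limma adjusted p = 0.273 and 0.190), against -0.34 and -0.57 without the correction.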
